A study of Mus musculus with 4 samples.

Results

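The cytosolic ribosomal protein genes were taken from the deposited table as the rows whose symbol is Rpl or Rps followed by a number and at most 1 further letter (a, x or l), together with Rpsa, Rplp0, Rplp1 and Rplp2, and without pseudogene symbols holding -ps. This gave 83 of 55401 genes, namely 48 genes of the large subunit, 32 of the small subunit and 3 of the P stalk. In the GENCODE annotation 3 of them (Rps4l, Rpl6l and Rpl32l) are not protein coding in spite of their symbols. RNA-seq was performed on E14 cells, a mouse embryonic stem cell (mESC) line, with 2 libraries of WT cells and 2 of Haspin-KO cells. Haspin is the kinase of threonine 3 of histone H3 in mitosis. All cells were kept in serum with LIF and 2i, on fibroblast feeders for passage or on gelatin for assays, and the Haspin-KO lines were single clones picked after CRISPR/Cas9 cutting in the coding sequence. The study made a pair of such lines, and the labels do not say which line each library came from, or whether the libraries of a group came from separate cultures. P-values therefore measure only the spread between these libraries, which may be technical. In bulk RNA, fewer cells of a type and less RNA per cell cannot be told apart.

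The ribosome is built from a small subunit, which reads the mRNA, and a large subunit, which joins the amino acids, and each holds ribosomal RNA and a fixed set of proteins made in nearly equal amounts. The mRNAs of these proteins begin with a run of pyrimidines, the 5′ terminal oligopyrimidine (TOP) tract, through which mTOR signalling controls their translation. Stem cells make these mRNAs at high levels, and each has many processed copies across the genome, so that their reads are hard to assign to 1 locus.

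Library totals were between 14207828 and 21834847 counts, with the WT libraries the deeper ones. Haspin had 40.1 and 35.7 CPM (counts per 1000000 counts of the library, scaled by TMM) in the WT libraries and 10.4 and 14.6 in the Haspin-KO libraries, a log2 fold change of -1.6 (SE 0.16, edgeR adjusted p = 0.00154). The 8 mESC markers summed to 6032 and 6201 CPM of the library total in WT and to 5840 and 5796 in Haspin-KO. Markers of fibroblast feeders moved with the groups as a sum, but not in every gene. The 9 genes of that list summed to 110 and 83 CPM in the WT libraries and to 11.9 and 9.63 in Haspin-KO. Col1a1 had 48.7 and 32.9 CPM in WT and 1.69 and 1.66 in Haspin-KO. Col1a2 had 29.5 and 24.0 CPM in WT and 0.493 and 0.485 in Haspin-KO. Col3a1 had 6.96 and 7.56 CPM in WT and 0.141 and 0.0693 in Haspin-KO. Lum was at 0 in all 4 libraries, and Dcn, Postn and S100a4 were at 0 in both Haspin-KO libraries. In WT, Postn had 7.83 and 4.41 CPM, S100a4 1.01 and 0.516, and Dcn 0.183 and 0.115. Thy1 had overlapping groups, with 2.52 and 2.75 CPM in WT and 2.6 and 1.11 in Haspin-KO. Pdgfrb had 13.1 and 10.7 CPM in WT and 6.97 and 6.3 in Haspin-KO. The 7 markers of the 2-cell-like state summed to 43.2 and 37.6 in WT and to 105 and 86.2 in Haspin-KO. The part of either cell type in the results given here was not tested.

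The coding sequences of the members that the results turn on are short. Rpl38 and Rpl41 are shown because they had some of the lowest fold changes of the members, and Rpl41 has the shortest reading frame of the members, with 25 codons before the stop. They are written 5′ to 3′ from the GENCODE M21 transcripts of GRCm38, with the start and stop codon in capitals.
Rpl38: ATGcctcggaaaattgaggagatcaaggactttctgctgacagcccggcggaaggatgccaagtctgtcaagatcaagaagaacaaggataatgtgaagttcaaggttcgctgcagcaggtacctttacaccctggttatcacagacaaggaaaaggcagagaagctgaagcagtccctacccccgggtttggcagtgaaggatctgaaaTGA
Rpl41: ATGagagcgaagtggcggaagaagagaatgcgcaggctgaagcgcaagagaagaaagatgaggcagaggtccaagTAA
Rpl39 and Rpl39l are shown because they are paralogs of equal length, 156 bases, of which Rpl39 was called lower and Rpl39l was not called. The difference between them was not tested. Capitals mark the 23 bases at which they differ, and 85.3% of the bases are identical.
Rpl39: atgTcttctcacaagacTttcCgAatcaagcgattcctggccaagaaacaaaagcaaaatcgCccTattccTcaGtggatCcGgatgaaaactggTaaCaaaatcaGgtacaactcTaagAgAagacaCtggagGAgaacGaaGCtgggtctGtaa
Rpl39l: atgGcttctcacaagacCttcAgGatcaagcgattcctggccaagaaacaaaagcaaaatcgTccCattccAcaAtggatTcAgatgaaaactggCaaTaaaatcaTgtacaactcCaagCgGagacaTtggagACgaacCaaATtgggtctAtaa
No run of 50 bases is shared by this pair, whereas 80 of the 83 members share at least 1 run of 50 bases with a transcript of another annotated gene.

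A smaller share of the reads lay on ribosomal protein genes in Haspin-KO than in WT. The members held 4.53% and 4.38% of all counts in the WT libraries (mean 4.45% ± 0.10, SD, n = 2) and 3.68% and 3.69% in the Haspin-KO libraries (3.69% ± 0.01, SD, n = 2), a ratio of 0.828. The groups did not overlap, and the difference of -0.77 percentage points was larger than the spread within either group. With 2 libraries against 2, an exact permutation test of a single value cannot go below a two-sided p of 0.333, and none was made for this sum. The large subunit genes took 2.09% and 2.01% of counts in WT and 1.73% in each Haspin-KO library, a ratio of 0.847. The small subunit genes took 2.11% and 2.06% in WT and 1.70% and 1.73% in Haspin-KO, a ratio of 0.822. The 3 stalk genes went from 0.330% and 0.315% to 0.249% and 0.233%, a ratio of 0.747.

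**Figure D1:**
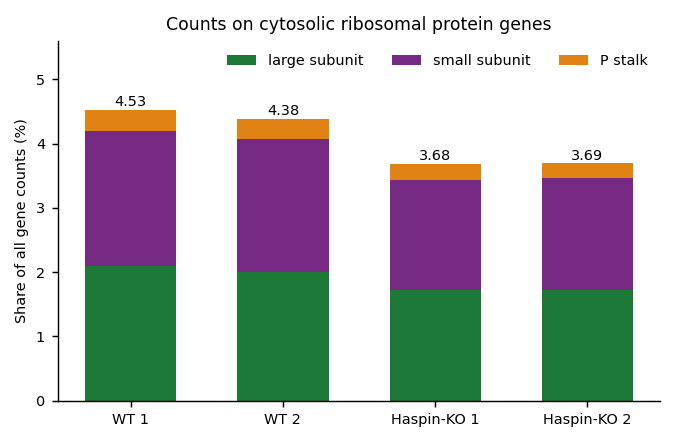
Share of all gene counts (percent, y axis) that lay on the 83 cytosolic ribosomal protein genes in each of the 4 libraries (x axis), stacked by large subunit, small subunit and P stalk, with the sum printed above each bar. Both WT bars (4.53% and 4.38%) stand above both Haspin-KO bars (3.68% and 3.69%).

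Of the 83 members, 82 had enough counts to be tested across the 15580 genes of the fit, and 71 of these had a log2 fold change below 0. The other gene, Rpl32l, had 9 and 2 counts in WT and 0 in both Haspin-KO libraries, and a count of 0 allows up to 3. The median log2 fold change of the members was -0.25, beside -0.004 over all genes tested, of which 50.6% were below 0. At an edgeR adjusted p under 0.05, 23 members (28.0%) were lower in Haspin-KO, beside 1.51% of all genes tested. None was higher, beside 0.988% of all genes, with 1 member higher at an unadjusted p under 0.05 and 0 by DESeq2. No member was a differentially expressed gene (DEG) with a fold change over 2 in either direction, where 0.501% of all genes were lower and 0.327% higher. None of the members over 2-fold had an unadjusted p under 0.05, and DESeq2 likewise made no such call. The 23 called members were lower by 18.4% to 37.6%. The number of calls depended on single libraries, and the share of all genes called lower moved with it. There were 6 lower calls without WT replicate 1 (beside 0.381% of all genes), 9 without WT replicate 2 (0.43%), 25 without Haspin-KO replicate 1 (2.57%) and 30 without Haspin-KO replicate 2 (2.63%). DESeq2 called 33 members lower, beside 0.956% of its 28670 genes. limma on log2(FPKM + 0.1) called none, beside 0.142% of all genes, with 39 members lower at an unadjusted p under 0.05. The share of all genes at that unadjusted threshold is not given here, so that this count has no background beside it.

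Both Haspin-KO libraries lay below both WT libraries for 63 members (76.8%), beside 26.9% of all genes tested, and above both for 2 members, beside 25.3%. The remaining 17 members overlapped. Library against library, the median log2 difference of the members was between -0.27 and -0.22 in the 4 pairs of a Haspin-KO with a WT library, with 68 to 75 members lower in each pair. Between the WT libraries it was 0.04, and between the Haspin-KO libraries -0.02. The differences between groups were thus larger than those within groups, and both Haspin-KO libraries contributed to them.

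**Figure D2:**
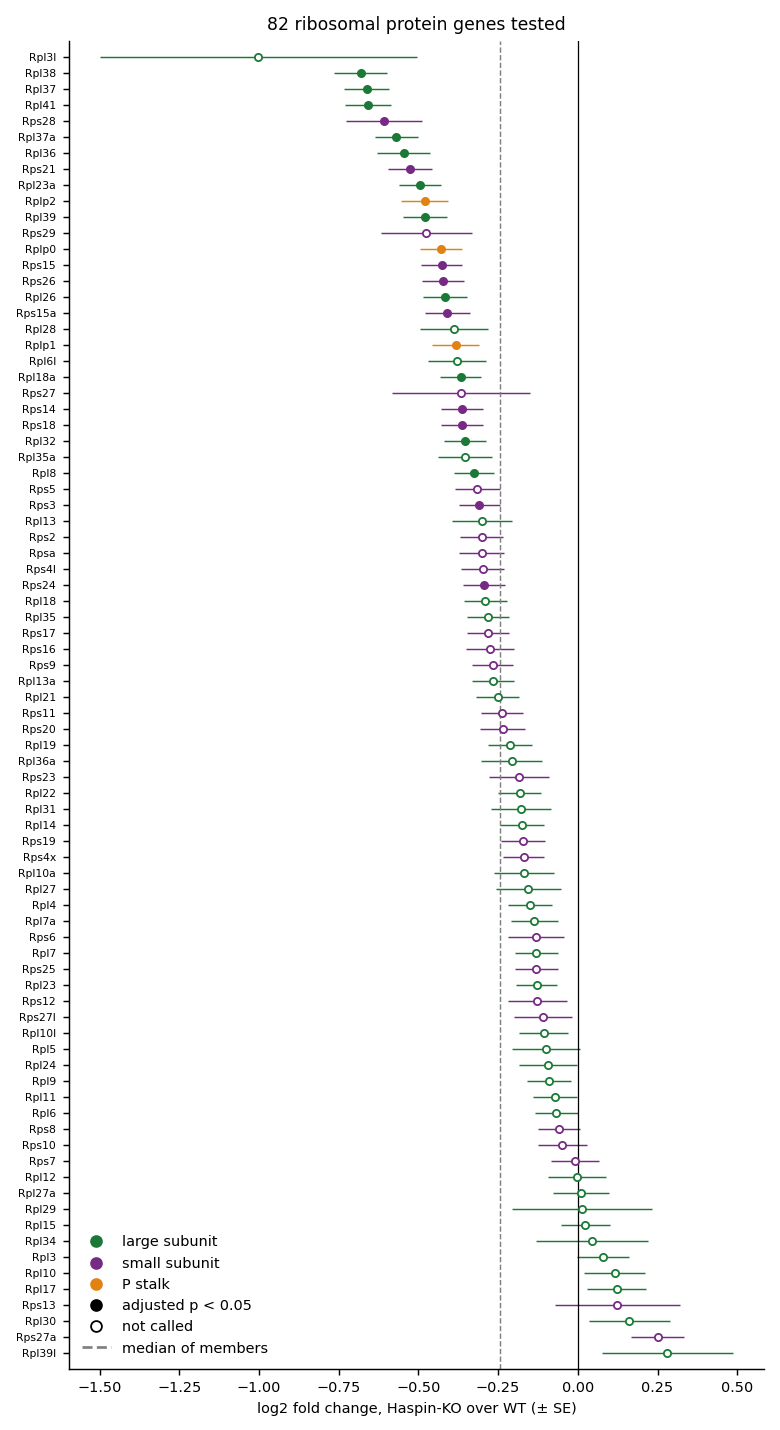
log2 fold change of Haspin-KO over WT (x axis, bars ± SE) of the 82 ribosomal protein genes tested (y axis, ordered by fold change), coloured by subunit and filled where the edgeR adjusted p was under 0.05. The filled points all lie left of 0, 23 in number, and the dashed line marks the median of -0.25.

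Among the large subunit genes, 11 of 47 tested were lower and none higher, with a median log2 fold change of -0.18. The lowest calls were Rpl38, Rpl37, Rpl41 and Rpl37a. Rpl38 (chr11:114668524-114672331, mm10, plus strand), a protein at the surface of the subunit whose loss in mice changes the axial skeleton, had 87.2 and 82.4 CPM in WT and 53.2 and 52.7 in Haspin-KO. Its log2 fold change was -0.68 (SE 0.08, edgeR adjusted p = 0.00465). The 2 Haspin-KO values lay well apart from the WT values, and the libraries of each group were close to each other. Rpl37 (chr15:5116645-5119140, plus strand), a small zinc-binding protein, had 240 and 235 CPM in WT and 153 and 147 in Haspin-KO. It fell by 0.66 on the log2 scale (SE 0.07, edgeR adjusted p = 0.00216), the smallest p of all members. Rpl41 (chr10:128548114-128549305, minus strand), a basic peptide that bridges the subunits, had 317 and 295 CPM in WT and 196 and 192 in Haspin-KO. Its log2 fold change was -0.66 (SE 0.07, edgeR adjusted p = 0.00248). Rpl37a (chr1:72711290-72713813, plus strand), another zinc-binding protein, had 486 and 495 CPM in WT and 341 and 321 in Haspin-KO, and its log2 fold change was -0.57 (SE 0.07, edgeR adjusted p = 0.00441). These 4 genes and Rps21 were called in 17 of 18 alternative fits, each library left out included, and not with limma.

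Of Rpl4, Rpl8, Rpl5, Rpl11 and Rpl10, all of the large subunit, Rpl8 was called lower and the others were not called. Rpl4, which lines the exit tunnel and had one of the highest levels of the members, had 2935 and 2771 CPM in WT and 2485 and 2657 in Haspin-KO. Its log2 fold change of -0.15 (SE 0.07) did not pass the test (edgeR adjusted p = 0.257). Rpl8, a protein beside the peptidyl transferase centre, had 2027 and 1990 CPM in WT and 1604 and 1601 in Haspin-KO and was called lower at a log2 fold change of -0.33 (SE 0.06, edgeR adjusted p = 0.0327). It lost this call without WT replicate 1 (adjusted p = 0.117) or WT replicate 2 (0.0998), and with offsets for gene length and GC content its log2 fold change was -0.17 (edgeR adjusted p = 0.322). Rpl5 and Rpl11 form with a small ribosomal RNA the particle that binds Mdm2 when ribosome assembly fails. Rpl5 had 41.0 and 42.9 CPM in WT and 35.9 and 42.4 in Haspin-KO (log2 fold change -0.10, SE 0.11), and its groups were not apart beyond the spread. Rpl11 had 257 and 246 CPM in WT and 238 and 240 in Haspin-KO (log2 fold change -0.07, SE 0.07), and neither gene passed the test. Rpl10, among the last proteins to join the large subunit, had 52.5 and 46.5 CPM in WT and 51.8 and 55.5 in Haspin-KO, with overlapping groups.

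Of the 32 small subunit genes tested, 30 had a log2 fold change below 0, 9 were called lower and none higher, and the median was -0.28. Rps21 (chr2:180257377-180258445, plus strand) had 277 and 288 CPM in WT and 196 in each Haspin-KO library, a log2 fold change of -0.53 (SE 0.07, edgeR adjusted p = 0.00664). Rps28 had 30.7 and 27.2 CPM in WT and 19.4 and 18.6 in Haspin-KO, a log2 fold change of -0.61 (SE 0.12, edgeR adjusted p = 0.0329). Rps15, whose tail reaches the decoding site, had 818 and 815 CPM in WT and 603 and 613 in Haspin-KO, and its log2 fold change was -0.43 (SE 0.06, edgeR adjusted p = 0.0125). In all 3 genes the Haspin-KO values lay below both WT values. Rps28 lost its call without WT replicate 1 (edgeR adjusted p = 0.206) or WT replicate 2 (0.0832), and so did Rps15 (0.0522 and 0.0577), while Rps21 was called with any 1 library left out. With offsets for gene length and GC content, Rps15 was at -0.25 (edgeR adjusted p = 0.138) and Rps28 at -0.51 (0.0624), neither of them called, and Rps21 was called at -0.41 (0.0315). Rps3, a protein at the mRNA entry channel, had 1383 and 1401 CPM in WT and 1102 and 1145 in Haspin-KO and was called lower (log2 fold change -0.31, SE 0.07, edgeR adjusted p = 0.0408), though not without WT replicate 1 (0.123) or WT replicate 2 (0.130), or with these offsets (0.0624). Rpsa, also known as the laminin receptor, missed the threshold with 2545 and 2461 CPM in WT and 1948 and 2111 in Haspin-KO (log2 fold change -0.30, SE 0.07, edgeR adjusted p = 0.0553). Without Haspin-KO replicate 2 it passed at 0.00751, and over 18 alternatives, the adjusted p of Rpsa was 6.79e-05 to 0.282. In all, 15 members had an adjusted p between the threshold and 0.1, and all of them had a log2 fold change below 0. The share of all genes in that range is not given here.

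Rps6, the substrate of S6 kinase, had 47.1 and 46.4 CPM in WT and 43.0 and 42.3 in Haspin-KO (log2 fold change -0.13, SE 0.09, not called). Of the counts of Rps6 and its named pseudogenes, 73.0% lay on the pseudogenes. Their sum was at -0.21, likewise not called (edgeR adjusted p = 0.166). Rps19, the gene most often mutated in Diamond-Blackfan anaemia, had 544 and 529 CPM in WT and 491 and 461 in Haspin-KO (log2 fold change -0.17, SE 0.07, not called). Rps25, which some viral and cellular mRNAs need for internal initiation, had 816 and 820 CPM in WT and 720 and 775 in Haspin-KO (log2 fold change -0.13, SE 0.07, not called). These 3 genes had both Haspin-KO values below both WT values, as 26.9% of all genes tested did, but small differences. Another 25.3% of all genes tested had both above. Rps27a, made as a fusion with ubiquitin, was the one small subunit gene among the members whose Haspin-KO values lay above the WT values. It had 63.3 and 62.9 CPM in WT and 72.9 and 77.3 in Haspin-KO, a log2 fold change of 0.25 (SE 0.08) that did not pass the test (edgeR adjusted p = 0.132).

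All 3 genes of the P stalk, the arm that recruits elongation factors, were lower in Haspin-KO. Rplp0 (chr5:115559467-115563727, plus strand), the base of the stalk, had 1649 and 1577 CPM in WT and 1194 and 1203 in Haspin-KO (log2 fold change -0.43, SE 0.07, edgeR adjusted p = 0.0130). Rplp1, one of the paired proteins that bind this base, had 985 and 976 CPM in WT and 791 and 712 in Haspin-KO (log2 fold change -0.38, SE 0.07, edgeR adjusted p = 0.0305). Rplp2, its partner, had 661 and 614 CPM in WT and 473 and 441 in Haspin-KO (log2 fold change -0.48, SE 0.07, edgeR adjusted p = 0.0127). None of the 3 genes had groups that overlapped. Without WT replicate 1 none of them passed (edgeR adjusted p = 0.0576, 0.104 and 0.0616 for Rplp0, Rplp1 and Rplp2), and without WT replicate 2 Rplp1 did not (0.104). With offsets for gene length and GC content, Rplp2 was called at 0.0376, and Rplp0 and Rplp1 were not, at 0.065 and 0.219. Over all alternatives the highest adjusted p was 0.23 for Rplp0, 0.292 for Rplp1 and 0.247 for Rplp2, and the lowest 1.07e-09, 3.04e-08 and 5.37e-13.

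**Figure D3:**
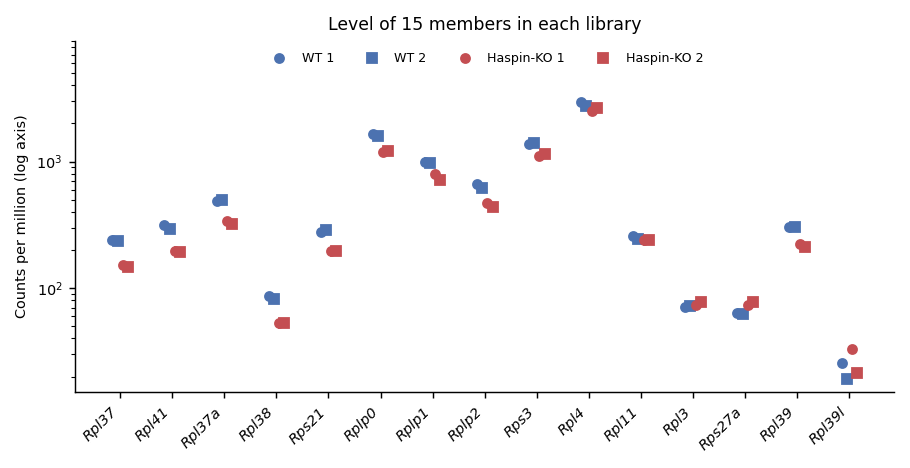
Level of 15 ribosomal protein genes (x axis) in each library in CPM scaled by TMM (y axis, log axis), with WT in blue and Haspin-KO in red and the replicate given by the marker shape. From Rpl37 to Rps3 the 2 red points lie below the 2 blue points, at Rps27a they lie above them, and at Rpl39l the replicates of each group stand far apart.

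Several members are paralogs of another member with expression known from few tissues. Rpl39l, a copy of Rpl39 made mainly in the testis, had the highest log2 fold change of the members, 0.28 (SE 0.20), with 25.7 and 19.2 CPM in WT and 33.3 and 21.4 in Haspin-KO. Its replicates differed by more than its groups, and without Haspin-KO replicate 1 its log2 fold change was -0.07, whereas without Haspin-KO replicate 2 it was 0.56 and passed the test (edgeR adjusted p = 0.0269). Rpl39 itself had 304 CPM in each WT library and 225 and 211 in Haspin-KO, a called log2 fold change of -0.48 (SE 0.07, edgeR adjusted p = 0.0110) that was lost without WT replicate 1 (0.0512) or WT replicate 2 (0.0577). Rpl3l, the paralog of Rpl3 made in muscle, had 37 and 52 counts in WT and 8 and 25 in Haspin-KO. Its log2 fold change of -1.0 (SE 0.50) was the lowest of the members but did not pass the test (edgeR adjusted p = 0.285), and its Haspin-KO replicates differed by 1.65 on the log2 scale. Without Haspin-KO replicate 2 its log2 fold change was -2.04 at an adjusted p of 0.0215, the range over its alternatives being 0.0164 to 0.699. Rpl3 had 70.9 and 71.9 CPM in WT and 73.7 and 77.2 in Haspin-KO and did not pass the test. It was one of the 2 members whose Haspin-KO values lay above both WT values. However, 91.7% of the counts of Rpl3 and its named pseudogenes lay on the pseudogenes. Summed with them, its log2 fold change was -0.16, likewise not called (edgeR adjusted p = 0.221).

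Some of these paralogs were measured above the gene they derive from. Rpl10l, an intronless copy of Rpl10 known from the testis, had a mean FPKM (counts scaled by exonic length and library total) of 202 in WT and 188 in Haspin-KO, whereas Rpl10 had 24.0 and 26.1. Rps27l, a p53 target, had a mean FPKM of 232 in WT and 216 in Haspin-KO, beside 4.64 and 3.62 for Rps27. The coding sequences of these pairs are 84.8% and 76.1% identical, and neither pair shares a run of 50 bases. Rpl10 and Rps27 share such runs with other genes, and 7.87% and 1.35% of their runs occur in no other annotated gene, beside 92.4% for Rpl10l and 77.6% for Rps27l, so that the levels of Rpl10 and Rps27 are uncertain. Rps4l had a mean FPKM of 783 in WT and 638 in Haspin-KO, close to Rps4x at 818 and 730, and neither gene was called, with edgeR adjusted p-values of 0.0511 and 0.182. Rps4l passed without Haspin-KO replicate 2 (0.0275). Rpl22 had 358 and 368 CPM in WT and 320 in each Haspin-KO library (log2 fold change -0.18, SE 0.07), and its partner Rpl22l1 46.5 and 49.5 CPM in WT and 44.7 and 40.3 in Haspin-KO, neither of them called. Rpl36a had 73.3 and 77.9 CPM in WT and 60.5 and 70.4 in Haspin-KO, and Rpl36al 160 and 149 in WT and 144 and 137 in Haspin-KO, likewise not called. However, 52.5% of the counts of Rpl36a and its named pseudogenes lay on the pseudogenes, and their sum was called lower (log2 fold change -0.51, edgeR adjusted p = 0.0106), beside -0.21 for Rpl36a alone.

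The proteins of the ribosome are needed in nearly equal numbers, but the measured levels of their genes were far apart. Over the 82 members tested, the mean FPKM ran from 1.06 to 1733, with a median of 146, beside a median of 4.86 over all genes tested. The highest were Rplp1 (1733), Rpl4 (1349), Rpl8 (1326) and Rps15 (1128), and the lowest were Rpl3l (1.06), Rps13 (2.35), Rpl34 (2.83) and Rps27 (4.13). Of these low members, Rps13 had 6.59 and 5.48 CPM in WT and 6.55 and 6.65 in Haspin-KO, and Rps27 4.99 and 4.73 in WT and 3.69 and 3.85 in Haspin-KO, neither of them called. Rpl29 with 4.90 and 4.50 CPM in WT and 4.25 and 5.25 in Haspin-KO, and Rpl30 with 24.6 and 21.8 in WT and 24.0 and 28.0 in Haspin-KO, had overlapping groups and were not called. There were 49 members over 100 FPKM and 19 under 30 FPKM. The members differed in how much of their mRNA occurs in no other annotated gene. For Rps27, 1.35% of the runs of 50 bases in its mRNA were found in no other annotated gene, for Rps13 17.0% and for Rpl4 83.5%. The 37 members with at least 50% of such runs had a median FPKM of 264, and the 45 members below 50% had a median of 78.2. Across the 82 members, which share the same 4 libraries, Spearman's rho of the mean FPKM with this percentage was 0.26. In the same split, the members with at least 50% had 16 calls and a median log2 fold change of -0.31, and those below 50% had 7 calls and -0.17. Over all genes tested, 1.51% were called lower. How reads mapping to several places were counted is not given in the sources used here, so that levels of members with few unique runs are uncertain.

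**Figure D4:**
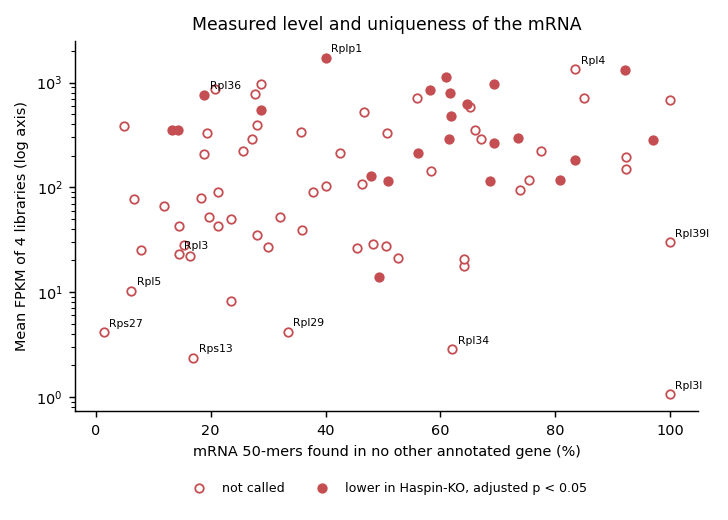
Mean FPKM of the 4 libraries (y axis, log axis) against the percentage of the runs of 50 bases in the mRNA that occur in no other annotated gene (x axis), 1 point for each of the 82 members tested, filled where the gene was called lower in Haspin-KO. Members with under 50% of such runs reach from 2.35 (Rps13) to 1733 FPKM (Rplp1), and most filled points lie above 100 FPKM.

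The reads of some members lay mainly on loci with pseudogene symbols. The table holds 319 ribosomal protein genes with such symbols, referred to as pseudogenes here, 79 of which were tested. Some of them have a coding sequence in the GENCODE annotation, such as Rps12-ps3 with 399 bases. For 13 members, the pseudogenes that carry the gene's name had more counts than the gene, led by Rpl34 with 98.5% of the counts of both on pseudogenes and Rps13 with 96.0%. Rpl34 had 166 and 124 counts in WT and 115 and 103 in Haspin-KO, whereas its 2 pseudogenes had 11906 and 9375 in WT and 6403 and 6205 in Haspin-KO. Alone, Rpl34 had a log2 fold change of 0.04 (SE 0.18), and summed with its pseudogenes -0.30 (edgeR adjusted p = 0.0495), the range over its alternatives being 0.0495 to 0.996. Summing in this way gave 25 lower calls among the members, beside 1.46% of all genes, none higher, and a median of -0.29.

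Among the tested pseudogenes the median was -0.28 on the log2 scale, with 9 lower (11.4%, beside 1.51% of all genes) and none higher, and 1 higher at an unadjusted p under 0.05 and 0 by DESeq2. The lowest of the called pseudogenes was Rpl38-ps2, with 93.1 and 96.7 CPM in WT and 51.4 and 52.0 in Haspin-KO (log2 fold change -0.88, SE 0.08, edgeR adjusted p = 0.00112). Rpl36a-ps2 followed with 94.6 and 93.4 CPM in WT and 54.9 and 52.7 in Haspin-KO (log2 fold change -0.81, SE 0.08, edgeR adjusted p = 0.00158). The others were Rps2-ps13, Rps12-ps3, Rps10-ps2, Rps15a-ps7, Rpl17-ps3, Rpl31-ps8 and Rpl34-ps1, with log2 fold changes from -0.70 to -0.30. Rpl38-ps2 and Rpl36a-ps2 were called with any 1 library left out, whereas none of these 7 was called without WT replicate 1, and Rps12-ps3 was the one called without WT replicate 2. Without Haspin-KO replicate 1, Rpl31-ps8 was also lost (0.0598), and without Haspin-KO replicate 2 Rpl34-ps1 (0.0785). Both Haspin-KO libraries lay below both WT libraries for 51 of the 79 tested pseudogenes (64.6%, beside 26.9% of all genes) and above both for 7. Pseudogenes and parents can hold each other's reads, so that these calls and this share are no second measurement.

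The members with the shortest coding sequences had the lowest median. The 11 members with at most 300 bases of coding sequence had 7 lower calls and a median of -0.53 on the log2 scale, and the 27 members between 300 and 450 bases had -0.28 and 9 lower calls. The 19 members between 450 and 600 bases had a median of -0.09 and 4 lower calls, the 19 between 600 and 900 bases -0.17 and 2, and the 4 above 900 bases, Rpl3l among them, -0.29 and 1. Other coding genes with short coding sequences also had a median below 0. The 259 other coding genes with at most 300 bases had a median of -0.20 with 10% called lower, against 0.02 with 0.969% called lower for the 9802 genes above 900 bases. Among other genes with a mean of at least 100 CPM, the 22 with at most 300 bases had a median of -0.24 with 8 called lower (36.4%). Of the members of that length, taken at any level, 63.6% were called lower. With the same floor, 14.7% of the 68 other genes between 300 and 450 bases were called lower, beside 33.3% of the members at any level. Across the 80 coding members, Spearman's rho of the log2 fold change with coding length was 0.34 and with the GC content of the mRNA -0.25, beside 0.23 and -0.41 across 13232 other coding genes, all from the same 4 libraries.

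**Figure D5:**
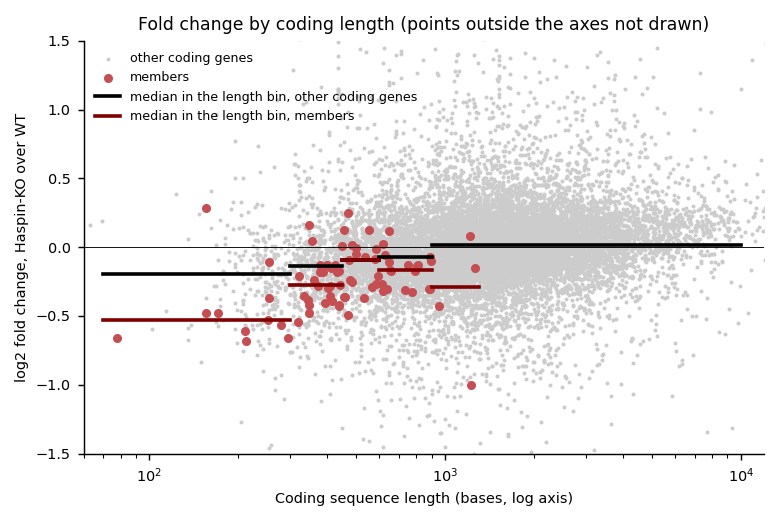
log2 fold change of Haspin-KO over WT (y axis) against coding sequence length in bases (x axis, log axis) for members (red) and other coding genes (grey), with horizontal lines at the median of each length bin. The shortest bin has a median of -0.53 for the members and -0.20 for the other genes, and above 900 bases the other genes lie at 0.02.

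With offsets that remove the trend of the counts with gene length and GC content, 13 members were lower (beside 0.924% of all genes) and none higher, and the median was -0.17, beside -0.01 over all genes. Of these, 12 had been called without the offsets. These offsets used the exonic length of the gene, and genes with short coding sequences kept medians below 0 with them. At up to 300 bases of coding sequence, the median was -0.47 for the members, beside -0.53 without offsets. For the 259 other coding genes of that length it was -0.18, beside -0.20 without offsets. The members called under each of the 4 ways of setting these offsets and without them were Rpl23a, Rpl37, Rpl37a, Rpl38, Rpl39, Rpl41 and Rps21. The part of coding length or GC content in the difference beyond these fits was not tested.

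Genes around the ribosomal proteins were compared in the same fit. At an edgeR adjusted p under 0.05, 1.51% of all genes tested were lower and 0.988% higher. Counts at an unadjusted p under 0.05 are given without the share of all genes at that threshold. Of the 80 tested mitochondrial ribosomal protein genes, none was called in either direction by edgeR or DESeq2, with 20 lower and 2 higher at an unadjusted p under 0.05 and a median log2 fold change of -0.13. Of 17 other mRNAs known to carry a TOP tract, such as those of elongation factors, none was called by edgeR, with 6 lower and 2 higher at an unadjusted p under 0.05, 1 lower by DESeq2, and a median of -0.12. Of 32 genes of ribosome assembly and RNA polymerase I, 1 was lower and none higher (8 lower and 2 higher at an unadjusted p under 0.05, 3 lower and 0 higher by DESeq2), with a median of -0.04. The called gene was Nop10, a part of the particles that convert uridine to pseudouridine in ribosomal RNA, with 84.9 and 78.9 CPM in WT and 61.8 in each Haspin-KO library (log2 fold change -0.41, SE 0.08, edgeR adjusted p = 0.0388). Its Haspin-KO values lay below both WT values, and its adjusted p was 0.215 without WT replicate 1 and 0.0996 without WT replicate 2. Of 12 genes that control ribosomal protein synthesis, among them Mtor and Larp1, none was called by edgeR or DESeq2, with 1 lower and 1 higher at an unadjusted p under 0.05 and a median of 0.02. The 8 host genes of small nucleolar RNAs had no call by either tool, 2 lower at an unadjusted p under 0.05 and a median of -0.08. Both Haspin-KO libraries lay below both WT libraries for 64.7% of the other TOP mRNAs and 52.5% of the mitochondrial genes, beside 26.9% of all genes. They lay above both for 3 and 9 of these genes. The share below was 37.5% for the assembly genes, 16.7% for the control genes and 37.5% for the host genes, with 6, 3 and 1 above. Rps3a1, a ribosomal protein gene outside the symbol rule, had 87.7 and 91.6 CPM in WT and 102 and 115 in Haspin-KO without passing the test, except without Haspin-KO replicate 1 (edgeR adjusted p = 0.0496).

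The promoters of 61 members were found in the RefSeq table of GRCm38.p6, each from 250 bases before to 50 bases after the annotated start. A TOP-like run, a C followed by at least 6 pyrimidines on the sense strand, occurred within 50 bases on either side of the start in 53 members (86.9%), beside 43.5% of 11017 other tested genes and 44.5% of all promoters in the table. It occurred in 13 of 16 members called lower and in 40 of 45 not called. CCGGAAG, the core bound by ETS factors, counted like the motifs after it on either strand of the 300 bases unless another window is given, occurred in 25 members (41.0%), beside 19.3% of the other tested genes and 9.93% of all promoters. It occurred in 9 of the 16 called members and 16 of the 45 others. GGGCGG, the core bound by Sp1, occurred in 36 members (59.0%), beside 67.9% of the other tested genes and 38.2% of all promoters. TATAAA in the 50 bases before the start, on either strand, occurred in none, beside 2.17% and 4.17%. GCCATNTT, a core of YY1 sites, occurred in 11 members (18%), beside 9.57% and 6.96%. Matches are a description of these windows, and RefSeq's start need not be the start used in these cells.

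The windows from 50 bases before to 20 bases after the start are shown for the 4 called members with the smallest p and the 4 members with the smallest log2 fold change in size, among the members with a promoter in the table, with TOP-like runs in capitals. The sequence is that of the gene's strand. Called lower:
Rpl37, chr15:5116563-5116632, plus strand: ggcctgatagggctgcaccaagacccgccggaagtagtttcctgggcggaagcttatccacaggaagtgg
Rpl41, chr10:128549149-128549218, minus strand: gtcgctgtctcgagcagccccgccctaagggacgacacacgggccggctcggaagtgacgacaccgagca
Rpl37a, chr1:72711210-72711279, plus strand: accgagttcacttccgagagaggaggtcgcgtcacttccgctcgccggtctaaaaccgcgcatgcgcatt
Rpl38, chr11:114668530-114668599, plus strand: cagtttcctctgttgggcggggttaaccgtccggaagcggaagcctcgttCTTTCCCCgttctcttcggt
Smallest change:
Rpl12, chr2:32961662-32961731, plus strand: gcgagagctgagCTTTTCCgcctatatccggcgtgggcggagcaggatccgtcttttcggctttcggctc
Rps7, chr12:28635934-28636003, minus strand: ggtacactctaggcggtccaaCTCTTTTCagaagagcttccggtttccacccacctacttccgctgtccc
Rpl27a, chr7:109519145-109519214, plus strand: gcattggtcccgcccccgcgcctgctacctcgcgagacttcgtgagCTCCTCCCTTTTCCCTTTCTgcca
Rpl15, chr14:18270967-18271036, minus strand: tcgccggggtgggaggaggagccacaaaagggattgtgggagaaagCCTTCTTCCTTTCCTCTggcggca
All 8 genes held a TOP-like run within 50 bases of the start, which in 3 of the called genes (Rpl37, Rpl41 and Rpl37a) lay after the end of the window shown. The windows of Rpl37 and Rpl37a end before the gene starts in the deposited table (5116645 and 72711290). That of Rpl41 lies inside the gene, which begins at 128549305 on the minus strand. Where the run lies in called and other genes was thus not compared from a common start.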

How the data were processed

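The data are 4 RNA-seq libraries of E14 mESCs, 2 WT and 2 Haspin-KO. The authors deposited raw counts per gene and FPKM values for each library, with the length, position and symbol of each gene. The submitters' processing notes name Cutadapt (1.9.1), HISAT2 (2.0.1), HTSeq (0.6.1), DESeq2 and mm10. The strand setting, the treatment of multi-mapped reads and the annotation release are not given in the sources used here.

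Counts were compared by edgeR's quasi-likelihood test (edgeR 4.0.16, R 4.3.3) after filterByExpr and TMM, with group as the only term, over the 15580 genes that passed. A gene was called at a Benjamini-Hochberg adjusted p below 0.05, and was a DEG if it also changed over 2-fold. SEs were derived from the F statistic. The fit was tested on simulated data with 200 changed genes, of which it recovered 93%, with 18 false calls. The planted changes were larger than those of the called members, so that recovery at the size of the latter was not tested. Alternatives were DESeq2 (1.42.0), limma (3.58.1) on log2(FPKM + 0.1) where at least 2 libraries reached 0.5 FPKM, other scalings and filters, a replicate block, loess offsets (span 0.3), thinning, sums with pseudogenes and each library left out.

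Named members were the 5 called with the smallest p, the 4 highest and 4 lowest in fold change and in FPKM, the 3 largest replicate ratios per group, and members with known roles or paralogs. Of the other lists, called genes were named, except for 1 result that is not reported here. Rps28, Rpl23a, Rpl36 and Rps3a1 and the members with the smallest change were named after their values were seen. Members and lists were chosen with earlier results of these data known. Coding sequences came from GENCODE M21, and promoters from RefSeq. SDs over 2 libraries cover only the spread between them.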

Additional observations from a re-analysis of the deposited data

How the results depend on the processing

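No member was a DEG under 16 of 18 alternative fits, and 1 was, Rpl3l, with the replicate block and without Haspin-KO replicate 2, so that this count was 0 to 1 with 1 library left out. The 23 lower calls became 41 with no filter on low counts, beside 2.53% of all genes. They were 33 with DESeq2 (0.956%) and 0 with limma (0.142%). They were 13 with gene length and GC content offsets (0.924%) and 10 with mRNA length and GC content offsets (0.789%). They were 11 with mRNA length offsets alone (0.976%) and 14 with GC content offsets alone (1.07%), the last 3 fits being chosen after seeing the data. With 1 library left out they were 6 to 30, and higher calls were 0 to 1. The median of -0.25 became -0.28 with no filter, -0.17 with gene length and GC content offsets, alone or with the block, -0.14 with mRNA length and GC content offsets, -0.18 with mRNA length offsets, -0.20 with GC content offsets and -0.29 in sums with pseudogenes, and was -0.26 to -0.24 with 1 library left out. The difference in share of counts, -0.77 percentage points, became -0.86 with pseudogenes and -1.30 for the share of the FPKM sum, and was -0.84 to -0.69 with 1 library left out. The 11 calls in the related lists became 35 with no filter, 1 with limma, 5, 4 and 4 with gene length and GC content, mRNA length and GC content, and mRNA length offsets, 2 in sums with pseudogenes, and 2 to 20 with 1 library left out.

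Same-numbered libraries share only a number, and their deviations correlated at 0.29. With the replicate block 49 members were lower, 1 of them past the fold limit, and 2 higher, Rps27a (edgeR adjusted p = 0.00491) and Rpl39l (0.0375), and 83 genes of the related lists were called, while 11.2% of all genes were called lower. With the block and the offsets 36 members were lower, beside 7.21% of all genes, and 1 higher, Rps27a (0.00576), and 53 related genes were called.

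Direction reversed for 7 named members. With 1 library left out, Rpl39l was at -0.07 to 0.559, below 0 without Haspin-KO replicate 1, Rpl34 at -0.031 to 0.113, Rpl29 at -0.152 to 0.16 and Rpl5 at -0.23 to 0.017. Rpl34 was at -0.298, Rpl3 at -0.159 and Rpl29 at -0.025 in sums with pseudogenes. Rpl29 was at -0.015 with no filter and -0.071 after thinning. Rpl11 was at 0.029 with gene length and GC content offsets (0.028 with the block), 0.073 with mRNA length and GC content, 0.018 with mRNA length and 0.011 with GC content alone, and Rps19 at 0.042 with mRNA length and GC content. The cause was not tested. Depth limits members with few counts, such as Rpl29, Rps13, Rpl34 and Rps27.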
